A study of Mus musculus with 6 samples.

Results

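LIM-domain genes of focal adhesions and muscle were followed through the cells of the mouse aortic root and ascending aorta. The set holds 10 of the 31055 features counted in each cell: Tes, Zyx, Fhl1, Fhl2, Csrp1, Csrp2, Pdlim1, Pdlim3, Pdlim5 and Pdlim7. They were taken by symbol from the feature list, and the set was chosen by measured values as well as by family, since earlier levels of these genes in subtypes of vascular smooth muscle cells (VSMCs), such as low Tes and high Fhl2 in the VSMC2 subtype, were in view. Their levels are therefore a description, and no test was run on them.

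LIM domains are zinc-binding folds that dock onto other proteins rather than onto DNA. Testin (Tes) and zyxin (Zyx) sit at focal adhesions and along stress fibers, where zyxin gathers at strained actin. The Fhl proteins (Fhl1, Fhl2), built of LIM domains alone, are adaptors that also enter the nucleus, the cysteine-rich proteins (Csrp1, Csrp2) bind alpha-actinin and serum response factor (SRF), and the PDZ and LIM proteins (Pdlim) tether alpha-actinin to partners of the cytoskeleton. These families are found in smooth muscle, whose contractile filaments are anchored in dense plaques, which resemble focal adhesions.

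Cells came from 6 female mice at 16 weeks of age on a 129 background, of which 4 were control (CTL, Tgfbr1+/+) and 2 were models of Loeys-Dietz syndrome (LDS, Tgfbr1M318R/+), with a missense allele of the TGF-β type I receptor. Of the 4 control mice, 2 also carried Wnt2CRE and the EGFP-L10a tracer, which is meant to mark the cardiac neural crest lineage through a recombinase under the Wnt2 promoter, and the other control and LDS mice are listed without either allele. The aorta was digested with collagenase and elastase, and live nucleated cells were sorted and sequenced, with transcript ends counted by unique molecular identifiers (UMIs). The number that closes each barcode separates 6 libraries, but no source used here pairs a number with a mouse. LDS and control cells were therefore not compared, and every value is given within a library or as the lowest, median and highest of the 6 libraries. UMIs of the tracer (GFP) numbered between 157 and 263 in libraries 1 to 4 and 8 and 6 in libraries 5 and 6, so 4 libraries held the tracer where the labels list it for 2 mice.

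Filtering left 24972 of 30716 barcodes, with 18218282 to 38105145 UMIs per library and a median of 5572 to 9838 UMIs per cell. Clusters named from markers held 10353 VSMC-like, 13429 fibroblast-like, 570 endothelial-like and 444 leukocyte-like cells. Of the barcode sequences of kept cells, 76 occurred in more than 1 library. The members were not held out of the variable features when the cell classes were clustered. VSMC-like cells were split again without the members and the other listed genes among the variable features. The split gave 7905 VSMC1-like cells (76.4%), 1789 VSMC2-like cells (17.3%) and 659 cells in neither group. The names rest on Ptprz1, Enpep and Notch3 and not on Tes. Ptprz1 was lower in VSMC2-like cells in 6 of 6 libraries (median log2 ratio −2.04), and Enpep (3.15) and Notch3 (3.01) were higher in 6 of 6.

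Promoters are shown first for the members whose windows held a binding motif of a smooth muscle regulator. RefSeq windows (GRCm38.p6, from 250 bases before to 50 after a start) matched 9 of the 10 members by symbol, with 13 windows in all, and the 250 bases before each start were searched. The CArG box, the site read by SRF, lay in 3 of these 13 windows, which were both windows of Fhl2 and 1 of 2 windows of Fhl1. It lay in 482 of all 32851 windows (1.47%), in 2 of 13 windows of contractile and SRF genes and in 6 of 61 windows of other LIM genes. The MCAT motif, read by TEAD factors, was searched as CATTCC and GGAATG so that both strands were covered. It lay in 1 of the 13 windows of the members, that of Pdlim3, and in 12.6% of all windows. The motif lay in 6 of 13 windows of contractile and SRF genes and in 8 of 61 windows of other LIM genes. The sequences below, of the 3 members with a match, run 5′ to 3′ on the strand of the gene, with the motif in capitals.
Fhl2 upstream start, chr1:43196838-43196867, minus strand: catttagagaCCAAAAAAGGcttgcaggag
Fhl2 inner start, chr1:43163962-43164022, minus strand: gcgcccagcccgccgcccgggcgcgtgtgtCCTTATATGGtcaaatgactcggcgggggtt
Fhl1, chrX:56779551-56779620, plus strand: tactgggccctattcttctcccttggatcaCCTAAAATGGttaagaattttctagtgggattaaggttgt
Pdlim3 far match, chr8:45885256-45885321, plus strand: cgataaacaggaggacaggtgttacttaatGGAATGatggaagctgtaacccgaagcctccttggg
Pdlim3 near match, chr8:45885466-45885486, plus strand: tccgggacagCATTCCcagtt

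In GENCODE M21 the upstream stretch of Fhl2 lies in an exon of the gene, and the inner stretch and that of Fhl1 lie in introns. The far stretch of Pdlim3 lies before the gene and the near one in an exon of it. The last base of the motif was 87 and 22 bases before the start in the windows of Fhl2 and 93 bases before it in Fhl1. In Pdlim3 these distances were 196 and 6 bases. A match describes letters, and binding was not measured.

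All 10 members were higher in VSMC-like than in fibroblast-like cells in each of the 6 libraries. VSMC-like cells are taken whole here, and their subtypes are compared further below. CPM below are the UMIs of a gene in every 1000000 UMIs of a cell group within a library, and a ratio is a log2 ratio of CPM within a library with 0.5 UMI added. Of 8731 features with at least 10 CPM in either class, 34.6% were higher in VSMC-like cells in all libraries and 38% were lower. TMM factors shifted these ratios by a median of 0.15 and left all 10 members higher in all libraries. The median ratio was 2.38 over the members and −0.02 over all features tested.

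**Figure D1:**
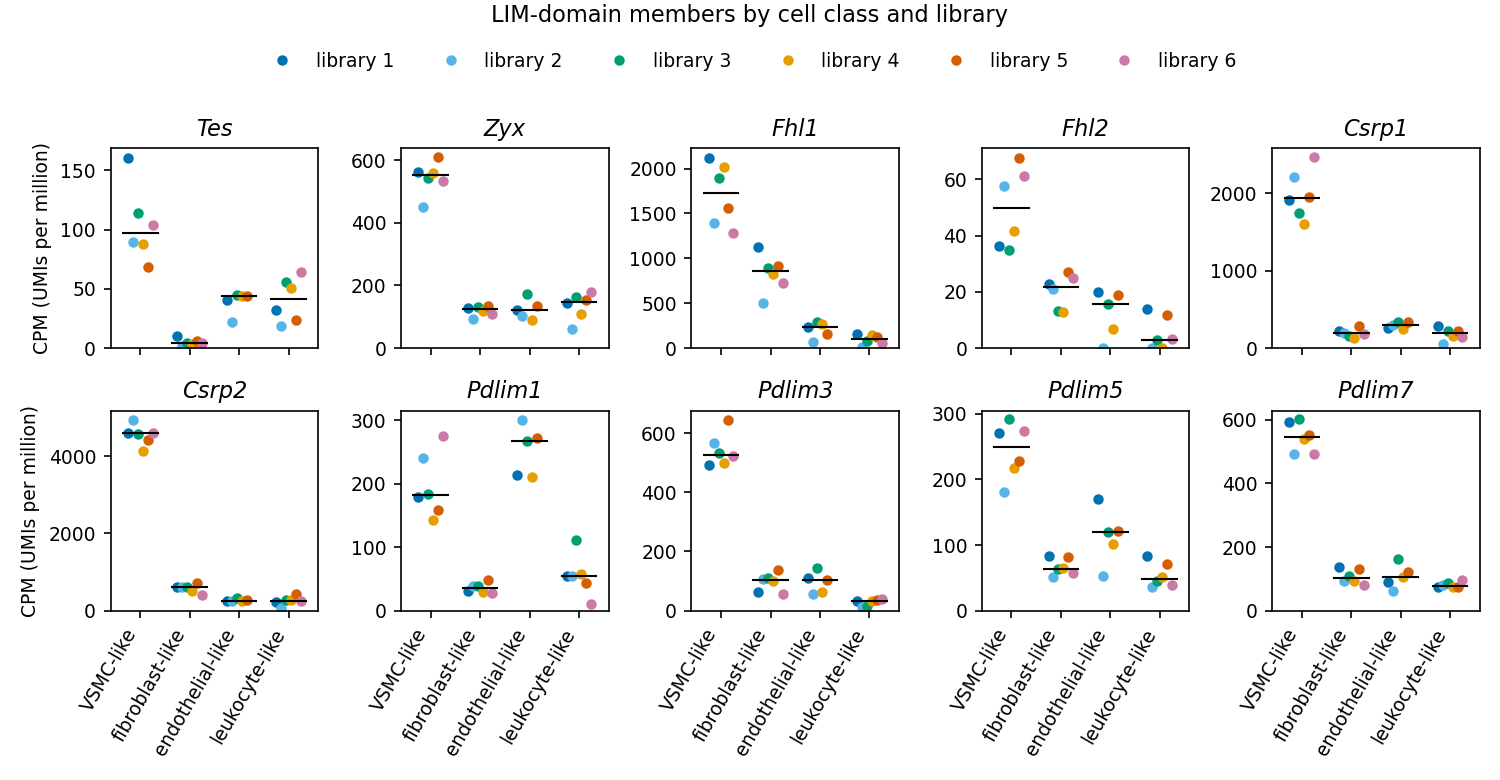
CPM of each member (vertical axis, linear and starting at 0, with its own range for each gene) in 4 cell classes. Each point is 1 library and each line the median. VSMC-like cells are highest for 9 members, whereas Pdlim1 is highest in endothelial-like cells in 5 libraries.

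Of the focal adhesion proteins, Tes (chromosome 6, 17065149 to 17105828, plus strand) showed the widest gap between these classes. Its level in VSMC-like cells was 68.2 CPM in library 5, 96.7 CPM in the median and 161 CPM in library 1, and in fibroblast-like cells it was between 1.35 and 10.4 CPM. The median log2 ratio was 4.71, with a range from 3.49 to 6.02, and no library of 1 class reached the levels of the other. Endothelial-like cells had a median of 43.7 CPM of Tes and leukocyte-like cells 41.3 CPM, between those of the other classes. In cells thinned to 3000 UMIs, Tes was found in 22.1% of VSMC-like, 12.5% of endothelial-like, 11.6% of leukocyte-like and 1.07% of fibroblast-like cells. Zyx (chromosome 6, 42349630 to 42360213, plus strand) had 449 to 611 CPM in VSMC-like cells (median 551) and a log2 ratio to fibroblast-like cells of 2.04 to 2.30 (median 2.21), the narrowest spread of the members. Fibroblast-like, endothelial-like and leukocyte-like cells overlapped for Zyx, with medians of 123, 120.4 and 148 CPM.

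The Fhl adaptors had the smallest ratios of the members. Fhl1 (chromosome X, 56731787 to 56793346, plus strand) had 1281 to 2123 CPM in VSMC-like cells (median 1730), and 503 to 1131 CPM in fibroblast-like cells (median 857), so that the classes were apart. Its levels were lower in endothelial-like cells (median 231 CPM) and, of the classes compared, lowest in leukocyte-like cells in all 6 libraries (median 101 CPM). The median log2 ratio of VSMC-like over fibroblast-like cells was 1.00 for Fhl1 and 1.37 for Fhl2 (chromosome 1, 43123074 to 43196984, minus strand). Fhl2 was the member with the fewest UMIs in kept cells, 5950 in all. It had 34.9 to 67.7 CPM in VSMC-like cells (median 49.6) and 12.9 to 27.0 CPM in fibroblast-like cells (median 21.8). Endothelial-like cells gave a median of 15.8 CPM and leukocyte-like cells 2.91 CPM. In library 2 neither class gave a UMI of Fhl2, and a count of 0 there allows up to 13.3 CPM in endothelial-like and 11.0 CPM in leukocyte-like cells. In thinned cells Fhl2 was found in 13.1% of VSMC-like, 4.10% of fibroblast-like and 0.526% of leukocyte-like cells.

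The cysteine-rich proteins set smooth muscle apart more than the Fhl adaptors did. Csrp1 (chromosome 1, 135720061 to 135752232, plus strand) had 1610 to 2464 CPM in VSMC-like cells (median 1936) and 136 to 290.0 CPM in fibroblast-like cells, a median log2 ratio of 3.49. Csrp2 (chromosome 10, 110919789 to 110939622, plus strand), also known as SmLIM, had 4144 to 4930 CPM in VSMC-like cells and 399 to 728 CPM in fibroblast-like cells, a median log2 ratio of 2.94. Its levels in VSMC-like cells differed by less between libraries than those of Fhl1 or Tes. Csrp2 was found in 99.4% of thinned VSMC-like cells and Csrp1 in 97.5%. Csrp2 was also found in 22.4% of thinned leukocyte-like cells and Csrp1 in 26.1%. Whether these UMIs came from the cells themselves was not tested.

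Among the PDZ and LIM proteins, Pdlim1 had a pattern of its own. Pdlim1 (chromosome 19, 40221173 to 40271842, minus strand) had 143 to 276 CPM in VSMC-like cells (median 182) and 210 to 300.4 CPM in endothelial-like cells (median 267), so the ranges overlapped. Within libraries endothelial-like cells were higher in 5 of the 5 libraries with at least 20 such cells. In fibroblast-like cells Pdlim1 had 28.4 to 48.2 CPM, a median log2 ratio of VSMC-like over fibroblast-like cells of 2.41. Pdlim3 (chromosome 8, 45885461 to 45919548, plus strand), also called ALP for its link to alpha-actinin, had 493 to 644 CPM in VSMC-like and 56.6 to 138 CPM in fibroblast-like cells, with a median log2 ratio of 2.35. Pdlim5 (chromosome 3, 142239590 to 142395696, minus strand), or Enigma homolog, had 181 to 292 CPM and 51.2 to 83.7 CPM, with a ratio of 1.79. Pdlim7 (chromosome 13, 55495795 to 55513676, minus strand), or Enigma, had 491 to 601 CPM and 80.5 to 138 CPM, with a ratio of 2.43. For Pdlim3, Pdlim5 and Pdlim7 the 2 classes did not overlap between libraries.

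A VSMC-like cluster of 940 cells was led by Rgs5, a marker of pericytes, and, like the other VSMC-like clusters, held no VSMC marker among its 10 leading genes. Without it all 10 members were still higher in VSMC-like cells in each library. Tes overlaps the antisense gene Gm4876, and Zyx overlaps Gm44284 and Epha1 on the other strand. Whether the counting used strand is not given in the sources used here, so reads of these pairs may not be told apart.

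The split into VSMC1 and VSMC2 addresses whether regional differences between smooth muscle cells, seen by imaging transcripts in tissue, also appear in dissociated cells. Between these subtypes the members went different ways. Of the 10 members, 3 were higher in VSMC2-like cells in all 6 libraries (Fhl2, Pdlim3 and Csrp1), 5 were lower in all 6 (Tes, Csrp2, Fhl1, Pdlim7 and Pdlim1) and Zyx and Pdlim5 went both ways. Of the 7700 features that reached 10 CPM in VSMC-like cells, all 10 members included, 12.6% were higher in all libraries and 22.3% were lower. The median ratio was −0.24 over the members and −0.06 over all features tested. Under another scaling (TMM factors) 2 members were higher and 6 lower in all libraries, since Csrp1 was then higher in 5 of 6 and Zyx lower in 6 of 6. Of the 7700 features, 888 were higher and 1807 lower under that scaling.

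**Figure D2:**
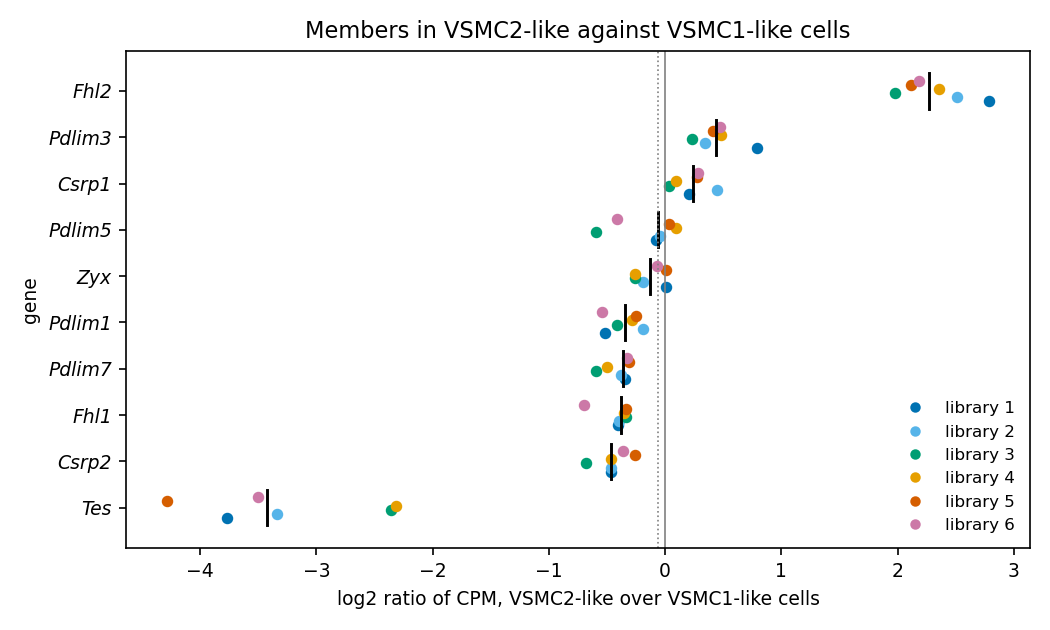
Log2 ratio of CPM in VSMC2-like over VSMC1-like cells (horizontal axis) for each member, ordered by its median. Points are the 6 libraries, black marks the medians, the solid line is 0 and the dotted line the median of all features tested. Tes lies between −4.28 and −2.32 and Fhl2 between 1.98 and 2.78, while the libraries of the other 8 members lie between −0.69 and 0.79.

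Tes and Fhl2 stood apart from the other members in size. In VSMC1-like cells of libraries 1 to 6, Tes had 183, 111, 137, 113, 81.4 and 121 CPM. In VSMC2-like cells of the same libraries it had 13.4, 10.9, 26.6, 22.6, 4.14 and 10.6 CPM. The subtypes did not overlap, and libraries 3 and 4 had the highest levels among VSMC2-like cells. The median log2 ratio was −3.42, which is 10.7-fold lower in VSMC2-like cells. It was −2.80 when the listed genes took part in the split, −4.15 without cells marked as doublets and −4.77 with clusters made without integration, and Tes was lower in 6 of 6 libraries in each case. These VSMC2-like values come from 200 UMIs in all, and the lowest, in library 5, from 14 UMIs, with a 95% Poisson interval of 2.26 to 6.95 CPM that covers counting error only. In thinned cells Tes was found in 26.7% of VSMC1-like cells (95% exact binomial interval 25.7% to 27.8%) and in 2.91% of VSMC2-like cells (2.17% to 3.82%), against 1.07% of fibroblast-like cells. At their own depth, with medians of 7246 and 6978 UMIs per cell, these shares were 46.7% and 6.54%. In library 5, VSMC2-like cells (4.14 CPM) were below fibroblast-like cells (6.06 CPM) in Tes, and in the other libraries above them.

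Fhl2 took the opposite course. Its level was 22.1, 29.4, 24.3, 20.5, 43.8 and 36.5 CPM in VSMC1-like cells of libraries 1 to 6 and 152, 168, 96.0, 105, 190 and 167 CPM in VSMC2-like cells. The subtypes did not overlap, and libraries 3 and 4, with the highest Tes in VSMC2-like cells, had the lowest Fhl2 there. The median log2 ratio was 2.27, or 4.82-fold higher in VSMC2-like cells. In thinned cells Fhl2 was found in 34.0% of VSMC2-like cells and in 8.62% of VSMC1-like cells, with leukocyte-like cells at 0.526%. Its median was 26.8 CPM for VSMC1-like cells, 159.6 CPM for VSMC2-like cells and 21.8 CPM for fibroblast-like cells. In library 1, VSMC1-like cells (22.1 CPM) were slightly below fibroblast-like cells (22.7 CPM) in Fhl2, and in the other libraries above them.

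The transcripts of Tes and Fhl2 were seldom found in the same cell. Of 9792 thinned VSMC-like cells, 2163 held a UMI of Tes, 1284 held a UMI of Fhl2 and 129 (1.32%) held both. Fhl2 was found in 5.96% of the cells with Tes and in 15.1% of those without, and it was the lower share among cells with Tes in each of the 6 libraries. These shares include the difference between the subtypes. Within VSMC1-like cells alone the pooled shares were 5.67% and 9.70%. There too the share with Tes was lower in each of the 6 libraries. The gap was small in library 4 (4.52% and 5.92%) and library 6 (9.09% and 9.85%). Only 50 thinned VSMC2-like cells held Tes and 9 of them also held Fhl2. A UMI that was not captured cannot be told from an absent transcript, so these are shares of detection.

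The log2 ratios of the other 8 members lay between −0.69 and 0.79 in every library. Pdlim3 had 452 to 612 CPM in VSMC1-like cells (median 505) and 608 to 813 CPM in VSMC2-like cells (median 679). Its median log2 ratio was 0.44, with the highest in library 1 (0.79) and the lowest in library 3 (0.23), and the ranges of the subtypes met only at their ends. Csrp1 had medians of 1901 and 2247 CPM and a median log2 ratio of 0.24. The range for Csrp1 was from 0.03 to 0.44, so libraries of the subtypes overlapped although each was higher within its library.

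Besides Tes, Csrp2 and Pdlim7 were the lower members whose libraries did not overlap between subtypes. Csrp2 had 4540 to 5294 CPM in VSMC1-like cells and 3104 to 3835 CPM in the VSMC2-like ones, with −0.46 as the median log2 ratio. Pdlim7 had 518 to 649 CPM and 402 to 484 CPM, a median log2 ratio of −0.36. Csrp1 and Csrp2, members of the same family, thus lay on opposite sides of 0 in 6 of 6 libraries. The Fhl pair did too, with Fhl1 at a median log2 ratio of −0.38.

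Fhl1 had 1392 to 2200 CPM in VSMC1-like and 860 to 1670 CPM in VSMC2-like cells, and library 6 was the lowest in both. Its log2 ratio was −0.69 in library 6 and between −0.41 and −0.33 in the other 5 libraries. Pdlim1 had medians of 192 and 142 CPM and a median log2 ratio of −0.35, with a range from −0.54 to −0.19. Its subtypes overlapped across libraries, with VSMC2-like cells of library 2 (218 CPM) above VSMC1-like cells of 4 libraries.

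Zyx and Pdlim5 showed no shared direction. Zyx had medians of 563 and 501 CPM and log2 ratios from −0.26 to 0.01, with libraries 1 and 5 barely above 0. Pdlim5 had medians of 253 and 225 CPM and log2 ratios from −0.59 in library 3 to 0.10 in library 4. For both genes, libraries lay on either side of 0.

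Several other measures moved with the subtypes, and their part in these ratios was not tested except where a value is given. Doublet marks fell on 8.94% of the VSMC2-like cells and on 1.48% of the VSMC1-like ones, and without marked cells the ratio of Tes was −4.15 and that of Fhl2 2.43. Of 7 fibroblast markers, 6 passed 10 CPM and 5 of these were higher in VSMC2-like cells in all libraries. Their summed level was 714 to 1301 CPM among VSMC1-like cells, 1020 to 5129 CPM among VSMC2-like cells and 24110 to 27313 CPM among fibroblast-like cells. Clustering without integration placed 159 VSMC2-like cells (8.89%) and 43 VSMC1-like cells (0.544%) in another class, and without these cells the ratios were −3.34 for Tes and 2.29 for Fhl2. Of 19 genes induced by dissociation, such as Fos and Hspa1a, 18 were higher in VSMC2-like cells in all libraries. Matched on the share of these genes, the subtypes gave −3.36 for Tes and 2.12 for Fhl2. In each of these 3 alternatives 3 members were higher and 5 lower in all libraries.

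Markers of leukocytes, endothelium and mesothelium were low in both subtypes. None of the 9 leukocyte markers passed 10 CPM, and their summed level stayed at 31.9 CPM or less. Endothelial markers summed to 5.28 to 50.8 CPM and mesothelial markers to at most 0.565 CPM, with 3 of their 5 genes at 0. Cardiomyocyte markers summed to 8.58 to 34.5 CPM among VSMC2-like and 2.51 to 14.1 CPM among VSMC1-like cells, and the marker Actc1 had medians of 21.9 and 1.21 CPM. Pericyte markers were not low, with sums of 166 to 677 CPM among VSMC2-like, 204 to 602 CPM among VSMC1-like and 201 to 502 CPM among fibroblast-like cells. Of these 5 markers, Abcc9 was lower in VSMC2-like cells in 6 of 6 libraries (medians of 23.3 and 48.3 CPM), whereas Higd1b, which did not pass 10 CPM, was higher in 6 of 6 (13.2 and 0.029 CPM). Rgs5, the most abundant of them, was lower in 4 libraries and higher in 2. The 7 VSMC markers summed to 56102 to 70371 CPM among VSMC2-like and 63617 to 68776 CPM among VSMC1-like cells, so the ranges overlapped.

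A finer split of the VSMC-like cells gave 6 subclusters of at least 2% of the cells, numbered 0 to 5. Subcluster 1 (1798 cells, led by Olfr558, Ndufa4l2 and Thbs1) held the VSMC2-like cells (99.5% of it), and subclusters 0, 2 and 4 held VSMC1-like cells. Subclusters 3 and 5 belonged to neither subtype, apart from 1.75% and 0.373% of their cells. These are values of the cells that were clustered, and they are a description.

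**Figure D3:**
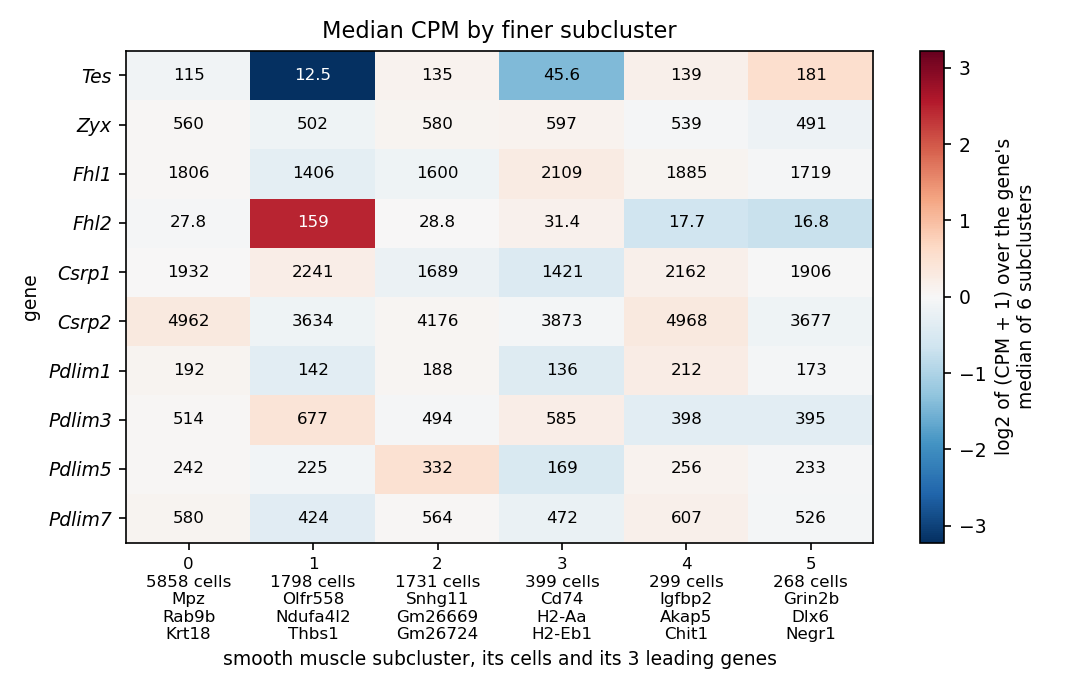
Median CPM over libraries of each member (rows, with the value printed) in 6 subclusters of VSMC-like cells (columns). Color is the log2 of CPM + 1 over the median of the gene's 6 values. Subcluster 1 holds the lowest Tes (12.5 CPM) and the highest Fhl2 (159 CPM), and subcluster 3 the next lowest Tes (45.6 CPM).

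In subcluster 3 Tes was also low, while Fhl2 stayed below its level in subcluster 1. Subcluster 3 (399 cells, led by Cd74, H2-Aa and H2-Eb1, genes of antigen presentation by MHC class II) had 10.1 to 75.5 CPM of Tes in the 5 libraries with at least 20 of its cells, a median of 45.6. Its Fhl2 was 37.0, 31.4, 26.9, 25.2 and 78.8 CPM in libraries 1 to 5, against 21.7, 30.4, 25.3, 20.2 and 43.3 CPM in subcluster 0 and 95.7 to 188 CPM in subcluster 1 of the same libraries. It was thus above subcluster 0 in all 5, by little in libraries 2 and 3, and library 5 had both its lowest Tes and its highest Fhl2. Against subcluster 2, Fhl2 in subcluster 3 was lower in library 3 (28.6 CPM in subcluster 2) and library 4 (27.0 CPM). It was higher than in subcluster 2 in libraries 1, 2 and 5. These values of subcluster 3 rest on 15 to 47 UMIs per library. Csrp1 was lower in subcluster 3 than in any other subcluster within each of these 5 libraries, with a median of 1421 CPM. Leukocyte markers summed to 9.31 CPM in subcluster 3 and to 10.9 CPM in subcluster 0. Fibroblast markers summed to 2720 CPM in subcluster 3, 930 CPM in subcluster 0 and 2872 CPM in subcluster 1, and Lum, a proteoglycan of fibroblasts, was among the 10 leading genes of subcluster 3. The part of these markers in its values was not tested.

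By their medians over libraries, subclusters 4 and 5 lay at the other end for this pair. Subcluster 4 (299 cells, led by Igfbp2, Akap5 and Chit1) had medians of 139 CPM of Tes and 17.7 CPM of Fhl2, and its cells were the deepest, with a median of 11335 UMIs. Subcluster 5 (268 cells, led by Grin2b, Dlx6 and Negr1) had 181 CPM of Tes, from 113 to 258 CPM, and 16.8 CPM of Fhl2. Fhl2 rested on 61 UMIs in subcluster 4 and on 30 in subcluster 5, with 0 in library 2 of subcluster 5. In library 6, Fhl2 was at 37.0 CPM in subcluster 4, above the 29.9 CPM of subcluster 2. Tes had a median of 135 CPM in subcluster 2, near that of subcluster 4. In library 3, Tes was at 113 CPM in subcluster 5, below the 137 CPM of subclusters 0, 2 and 4. Subclusters 4 and 5 had the lowest Pdlim3, with medians of 398 and 395 CPM against 494 to 677 CPM in the other subclusters. Pericyte markers summed to 5627 CPM in subcluster 5 and to at most 510 CPM in the others. Subcluster 2 (1731 cells, led by Snhg11, Gm26669 and Gm26724) had the lowest depth, 4123 UMIs per cell, and the highest median of Pdlim5, 332 CPM. Zyx varied least, with medians between 491 and 597 CPM over the 6 subclusters.

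The members were compared over 29 sums of a subcluster in a library with at least 50 cells, by Pearson's r of log2(CPM + 1). The sums share libraries, cells of the same suspension and depth, so r is a description. Fhl2 and Pdlim3 were most alike (r = 0.88), and Tes went against Fhl2 (r = −0.87) and Pdlim3 (r = −0.81). Tes and Pdlim7 had r = 0.72, Csrp2 and Pdlim7 0.62, and Csrp1 and Csrp2 0.24. Among all features with at least 10 CPM, the nearest to Tes were Sema3d (0.93), Npr1 (0.93) and Ppef1 (0.92). The nearest to Fhl2 were Gja4 (0.93), Ndrg1 (0.93) and Enpep (0.92), the last being a gene that named the subtypes.

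For the other members the nearest features reached lower values of r. Fhl2 was the nearest to Pdlim3, followed by Mrps6 (0.88) and Pkig (0.84). Pdlim7 was nearest to Cfl2 (0.89), a cofilin of muscle that severs actin, then to Gm26722 (0.89) and Atp6v1a (0.86). Csrp1 was nearest to Cap1 (0.86) and Cfl1 (0.81), both of which turn over actin filaments, and to Pcp4l1 (0.80). Csrp2 was nearest to Haus8 (0.77), Glipr1 (0.75) and Map3k7cl (0.73). Zyx was nearest to Isg20l2 (0.81), Klf6 (0.76) and Tcf7l2 (0.74), and Fhl1 to Cnih1 (0.84), Smim14 (0.84) and Tmem50b (0.84). Pdlim1 was nearest to Ankrd12 (0.85), mt-Atp8 (0.84) and Ptgis (0.82), and Pdlim5 to Wdfy1 (0.81), Ssh1 (0.81), a phosphatase of cofilin, and Ppp2r3a (0.80).

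The wider LIM family also lay on both sides of 0. The medians of the members ran from −3.42 to 2.27, set by Tes and Fhl2, which were in view when the set was chosen. Those of the other members ran from −0.46 (Csrp2) to 0.44 (Pdlim3), a narrower range than that of the wider family. Of 41 other LIM genes, 25 passed 10 CPM in VSMC-like cells, and relative to VSMC1-like cells 8 of these were higher and 10 lower in each library, with a median ratio of −0.05. Over all features tested, 12.6% were higher and 22.3% lower in each library. The lowest were Pdlim4 (−2.26, from 143 to 34.7 CPM), a further PDZ and LIM protein, and Limch1 (−1.57), which activates non-muscle myosin. The highest were Limd1 (1.12, from 35.3 to 83.9 CPM), an Ajuba relative that restrains Hippo signaling, and Crip1 (1.04, from 4268 to 8110 CPM), a short cysteine-rich protein. The Pdlim family was thus split, with Pdlim4, Pdlim1 and Pdlim7 lower and Pdlim2 (0.44) and Pdlim3 higher in all 6 libraries. Lmcd1 (−0.91), Lpp (−0.40), a relative of zyxin, and Fblim1 (−0.37), or migfilin, were lower in all 6, whereas Lims1 (0.80), or PINCH, and Lims2 (−0.30), its paralog, were on opposite sides.

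**Figure D4:**
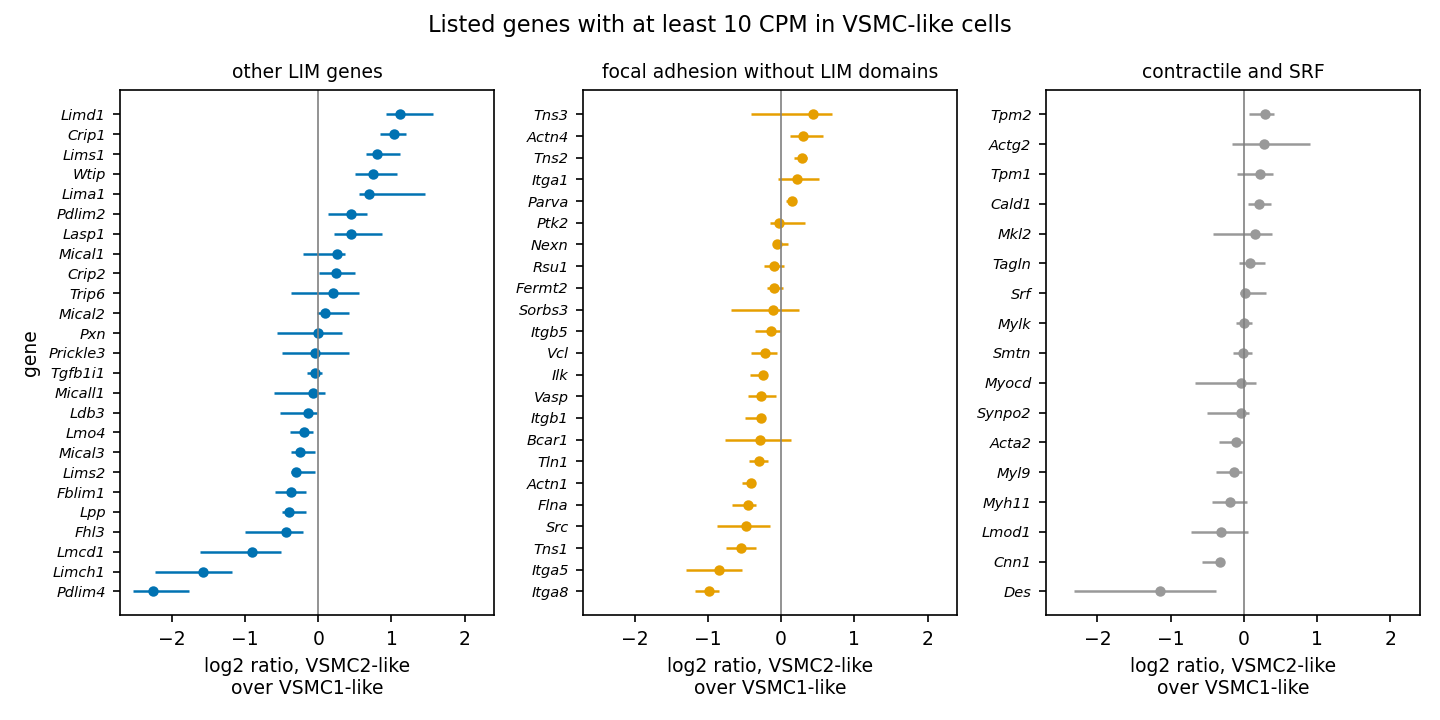
Log2 ratio between VSMC2-like and VSMC1-like cells (horizontal axis, above 0 when higher in VSMC2-like cells) of the listed genes that passed 10 CPM, in 3 panels. Points are medians over 6 libraries and lines run from the lowest to the highest library. Other LIM genes span −2.26 to 1.12, while 18 of the 24 focal adhesion genes without LIM domains and 10 of the 17 contractile and SRF genes lie below 0, and a focal adhesion gene that is counted here is not drawn.

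Among focal adhesion genes without LIM domains, more were lower than higher in VSMC2-like cells, as was so of all features. Of 26 genes 24 passed 10 CPM, of which 12 were lower and 4 higher throughout the 6 libraries, where 22.3% and 12.6% of all features tested were. Their median ratio was −0.18, against −0.06 over all features, and the difference was not tested. The lowest were the integrin subunits Itga8 (−0.98, from 1055 to 520.4 CPM) and Itga5 (−0.85, from 59.4 to 29.1 CPM). Among those with a ratio above 0, Tns3 (0.43), a tensin, was higher in 4 of 6 libraries. Actn1 (−0.41) and Actn4 (0.30), the alpha-actinins to which the Pdlim and Csrp proteins bind, were on opposite sides in 6 of 6 libraries.

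Contractile and SRF genes had a median nearer to 0. Of 18 genes 17 passed 10 CPM, of which 2 were higher and 4 lower in all libraries, near the 12.6% and 22.3% of all features tested. Their median ratio was −0.02, and Srf itself was at 0.01, or −0.02 with TMM factors. Des was the lowest (−1.15) and Tpm2 the highest (0.28). With TMM factors the counts were 7 higher and 9 lower for other LIM genes, 4 and 13 for focal adhesion genes and 1 and 2 for contractile and SRF genes. Of all 7700 features tested, 888 were then higher and 1807 lower in all libraries.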

How the data were processed

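Each mouse gave 1 library (10x Genomics, 3' v3 chemistry), and the authors deposited a single matrix of raw UMI counts for 31055 features and 30716 barcodes. The study's methods describe alignment to mm10 and aggregation with Cell Ranger 6, which the submitters' processing notes also name, while the matrix header gives version 4.0.0, and whether aggregation equalized depth is not given in the sources used here. Counts of barcodes lie slightly above those stated in the methods.

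Cells with over 1000 and under 5000 genes, over 1500 and under 25000 UMIs and under 20% mitochondrial UMIs were kept. Seurat 5.3.0 (sctransform 0.4.2, R 4.3.3) normalized each library with SCTransform v2 on 3000 variable genes, integrated libraries by reciprocal principal component analysis over 30 components and clustered at a resolution of 0.25. The 17 cardiomyocyte and 54 glial cells that clusters without integration separated were taken out of the VSMC-like and fibroblast-like classes after they were seen, and a cluster of 105 cells stayed unnamed. VSMC-like cells were split again at a resolution of 0.05, which left exactly 2 subclusters with 5% or more of them, with 163 genes of the lists left out, and at 0.1 for the finer subclusters.

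UMIs were summed per group and library with at least 20 cells. The ratio of 2 sums used a prior of 0.5 UMI and was checked on simulated data with known changes. Detection shares were computed at full depth and with each cell thinned to 3000 UMIs, leaving out shallower cells. Scrublet (scanpy 1.11.5) marked doublets within each library by its calls or, in libraries 2 and 5, by the 5% highest scores, since its calls there were under 0.5% of the cells, and marked cells stayed in the main sums. TMM factors came from edgeR 4.0.16. Intervals are 95% Poisson or exact binomial and cover counting error only.

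No p-values were computed, because the genotype of a library is not known, clusters came from the same cells, and members and lists were chosen with earlier results of these data known. Named genes are the 10 members, the pair with the highest and the pair with the lowest ratio of the lists of other LIM and of focal adhesion genes, and the 3 features most like each member. A focal adhesion gene that this rule names is not reported here, though the counts of its list include it. Further genes of the lists were picked with their values in view. Coordinates are 1-based, of mm10 from GENCODE M21.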

Additional observations from a re-analysis of the deposited data

Results flagged for a closer look

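Of 40 sets of 6 library values examined for a library far from the rest, 1 was picked out, where chance picks out about 1 set in 20. The log2 ratio of Fhl1 in VSMC2-like over VSMC1-like cells was −0.69 in library 6, and the other 5 libraries lay between −0.41 and −0.33. Without library 6 the median ratio was −0.36, against −0.38 with it.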

How the results depend on the processing

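Under each alternative listed here and with each library left out in turn, no member that lay on the same side of 0 in all libraries changed the sign of its median ratio. With a library left out, the counts stayed at 3 higher and 5 lower for VSMC2-like against VSMC1-like cells and at 10 higher and 0 lower for VSMC-like against fibroblast-like cells. The same 4 counts were found with a prior of 2 UMIs, without cells marked as doublets, without cells that clustering without integration placed in another class, and, for the subtypes, with the next finer split, with cells matched on the dissociation share and with all variable genes kept. With clusters made without integration 3 members were higher and 4 lower, since Pdlim1 was then lower in 5 of 6 libraries, and the median ratios of Tes (−4.77), Zyx (0.02), Fhl2 (2.62), Csrp1 (0.45) and Csrp2 (−0.32) moved by more than the spread between libraries. Neither that alternative nor the one with all variable genes had a resolution with exactly 2 subclusters of at least 5%, so the subcluster with the highest VSMC2-like score was set against the other large ones together. Without integration, 931 of the 933 cells of a VSMC-like subcluster came from libraries 2 and 6, those with the highest depth per cell. Over UMIs pooled from all libraries 3 members were higher and 7 lower in the VSMC2-like sum. Without the filter of 10 CPM, 1686 of 19027 features (8.86%) were higher throughout in VSMC2-like cells and 2223 (11.7%) lower, against 974 and 1716 of 7700 with it, and 4045 and 6074 of 21738 in VSMC-like than fibroblast-like cells, against 3025 and 3320 of 8731. The cause of these differences was not tested. Depth limits Fhl2 in endothelial-like and leukocyte-like cells and in subclusters 3, 4 and 5, and Tes in VSMC2-like cells, which rest on few UMIs per library. Each ratio compares cells of the same library. The cell groups of a ratio are thus paired by library, and no test was run on these pairs. Mice could not be compared, because their labelled replicate numbers are not tied to barcode numbers.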
